A study of Mus musculus with 8 samples.

Results

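The genes described here encode the nuclear subunits of the mitochondrial respiratory chain and the ATP synthase. They were chosen by symbol: protein-coding genes of the Nduf, Sdh, Uqcr, Cox (families 4 to 8) and Atp5 series, without pseudogenes. The rule gave 86 genes out of the 27179 rows of the count matrix. Of these, 37 belong to complex I, 4 to complex II, 8 to complex III, 20 to complex IV and 17 to complex V, the ATP synthase. Ndufa4 and Ndufa4l2 were placed with complex IV, where Ndufa4 protein resides. A filter on low counts left 80 of the 86 to be tested, and the other 6 are accounted for below. A further protein-coding symbol that the rule matches, Ndufb1, was not analysed here.

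RNA was sequenced from 4 mouse mammary tumour cell lines, 4T1.2, 4T1, 66cl4 (spelled 66c14 in the sample labels) and 67NR, with 2 biological replicates of each and no treatment. All 4 lines are of BALB/c origin and were grown in the same medium, and 4T1.2 is a clone of 4T1. The study treats 4T1 and 4T1.2 as the more metastatic pair, so the question of the main comparison was how the mean of 4T1 and 4T1.2 differs from the mean of 66cl4 and 67NR. Each line is a single established culture, so a difference between lines belongs to those cultures. Totals per library ran from 37159840 to 66269681 counts. The 6 epithelial markers checked summed to 1998 CPM (counts per 1e6 counts of a library, after TMM scaling) in 4T1.2 and 3036 in 4T1, and only 497.7 in 67NR and 721.5 in 66cl4, with Epcam at 0 counts in 66cl4. Of the 4 mesenchymal markers, Zeb1 had a mean of 64.2 CPM in 67NR and 62.6 in 66cl4, but 0.456 in 4T1 and 0.318 in 4T1.2. Cdh2 had 81.9 CPM in 67NR and 94.2 in 66cl4, but 0.0108 in 4T1 and 0.00883 in 4T1.2. Fn1 was also lower in 4T1.2 and 4T1 (433 and 564 CPM, with 979 in 67NR and 1353 in 66cl4), whereas Vim was higher (5455 and 5829, with 1948 and 3277). The part of these marker differences in the results below was not tested. The 5 leucocyte markers summed to at most 0.309 CPM in any line, and Cd3e and Adgre1 were at 0 in all 8 libraries. In bulk RNA, fewer cells of a kind and less RNA per cell cannot be told apart.

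Electrons enter the chain through complex I from NADH or through complex II from succinate, pass through complex III to cytochrome c, and reach oxygen at complex IV. Complexes I, III and IV pump protons, and the ATP synthase uses the returning protons to make ATP. Complexes I, III, IV and V combine nuclear subunits with a few encoded by mitochondrial DNA, whereas complex II is wholly nuclear. Several complex IV subunits and the c subunit of the ATP synthase exist as paralogues with tissue-restricted or condition-bound use. NRF1, the ETS factor GABPA, the oestrogen-related receptors (ERR) and YY1 are known regulators of these genes.

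Promoter windows from RefSeq (GRCm38.p6, 250 bases before to 50 after the start) were found for 66 of the 80 tested members. They were searched on both strands for CGCATGCG (NRF1), CCGGAAG (ETS/GABPA), AAGGTCA (ERR) and AAGATGGC (YY1). The ETS/GABPA motif was in the windows of 16 of the 66 members (24.2%), against 19.3% of the 10481 tested protein-coding genes with a window. The YY1 motif was in 10 (15.2% against 5.03%), and the NRF1 and ERR motifs were in 8 each (12.1% against 4.12% and 3.92%). Of the 10 members with the YY1 motif, 7 were complex I genes. On the strand with the sequence of the RNA (the one printed below) the ETS/GABPA shares turned, to 6.06% of members against 10.8% of all genes. Most members with this motif held it only on the opposite strand, whose shares were not computed alone. Each motif was in a minority of the windows. A match is a description of letters and says nothing of binding.

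The first 3 windows below are shown for their motifs, in capitals. Atp5e, the epsilon subunit of the ATP synthase, holds ETS/GABPA 102 bases before the start and ERR after it. Atp5k, a membrane subunit of the same complex, holds NRF1, ETS/GABPA and ERR. Ndufb8, the complex I member that was lower in 4T1/4T1.2, holds YY1. The windows of Cox7b and its paralogue Cox7b2 hold none of the 4 motifs. They are shown because the level of Cox7b2 separated the pairs of lines. These 5 were chosen with their values known.
Atp5e, chr2:174464052-174464351, minus strand: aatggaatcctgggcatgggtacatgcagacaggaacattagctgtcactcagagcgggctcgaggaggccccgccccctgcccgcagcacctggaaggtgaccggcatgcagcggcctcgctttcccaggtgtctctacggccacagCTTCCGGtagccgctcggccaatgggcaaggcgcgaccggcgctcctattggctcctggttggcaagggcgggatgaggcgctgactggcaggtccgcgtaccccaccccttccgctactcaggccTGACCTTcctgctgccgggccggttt
Atp5k, chr5:108434350-108434649, minus strand: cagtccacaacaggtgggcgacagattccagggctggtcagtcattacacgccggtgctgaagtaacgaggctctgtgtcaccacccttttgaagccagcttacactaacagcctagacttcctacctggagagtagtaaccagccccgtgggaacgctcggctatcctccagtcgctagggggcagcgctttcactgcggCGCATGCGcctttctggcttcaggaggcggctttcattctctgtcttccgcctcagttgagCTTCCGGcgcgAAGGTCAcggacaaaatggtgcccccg
Ndufb8, chr19:44555393-44555692, minus strand: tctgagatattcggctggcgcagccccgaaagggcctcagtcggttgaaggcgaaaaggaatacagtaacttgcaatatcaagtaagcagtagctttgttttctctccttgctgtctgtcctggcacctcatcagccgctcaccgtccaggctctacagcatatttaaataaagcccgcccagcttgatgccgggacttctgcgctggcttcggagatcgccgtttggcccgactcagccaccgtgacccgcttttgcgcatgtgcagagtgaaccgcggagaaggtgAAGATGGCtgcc
Cox7b, chrX:106015450-106015749, plus strand: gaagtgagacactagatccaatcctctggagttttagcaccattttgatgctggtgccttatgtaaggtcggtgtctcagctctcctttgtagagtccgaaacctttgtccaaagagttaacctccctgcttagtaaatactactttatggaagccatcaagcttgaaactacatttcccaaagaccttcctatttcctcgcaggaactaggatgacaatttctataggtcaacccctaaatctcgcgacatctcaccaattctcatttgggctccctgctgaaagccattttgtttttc
Cox7b2, chr5:71548156-71548455, minus strand: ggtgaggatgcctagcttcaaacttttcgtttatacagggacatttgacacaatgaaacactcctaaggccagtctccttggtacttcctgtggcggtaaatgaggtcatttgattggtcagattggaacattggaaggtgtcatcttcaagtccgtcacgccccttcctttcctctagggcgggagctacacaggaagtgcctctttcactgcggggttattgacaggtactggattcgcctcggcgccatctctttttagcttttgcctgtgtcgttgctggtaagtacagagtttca

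Most subunit genes were higher in 4T1 and 4T1.2 than in 66cl4 and 67NR. In the pooled comparison, 60 of the 80 tested members were higher and 3 were lower with an adjusted p below 0.05 in edgeR, and the median log2 difference was 0.57, a fold of 1.48. Of all 13913 genes tested, 38.1% were higher and 38.6% lower, and their median was -0.01. The members took 1.42% to 1.67% of all counts in the 4 libraries of 4T1 and 4T1.2 and 0.985% to 1.17% in the 4 of 66cl4 and 67NR, so these shares did not overlap. All 4 libraries of 4T1/4T1.2 lay above all 4 of 66cl4/67NR for 53 members and below them for 2, where the shares over all genes were 27.8% and 27.7%. Without TMM scaling the median of all genes moved by -0.13, and 58 members were then higher and 7 lower, with a median of 0.43. The replicates of a line were not equal, and the median member was higher in replicate 2 of each line. In replicates 1 and 2 it was at a log2(CPM + 0.5) of 6.59 and 6.97 in 4T1 and 6.62 and 6.79 in 4T1.2. It was at 5.97 and 6.28 in 67NR and 5.93 and 6.01 in 66cl4.

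The test for any difference among the 4 lines called 65 of the 80 members (81.2%), close to the 84.7% of all genes tested.

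**Figure D1:**
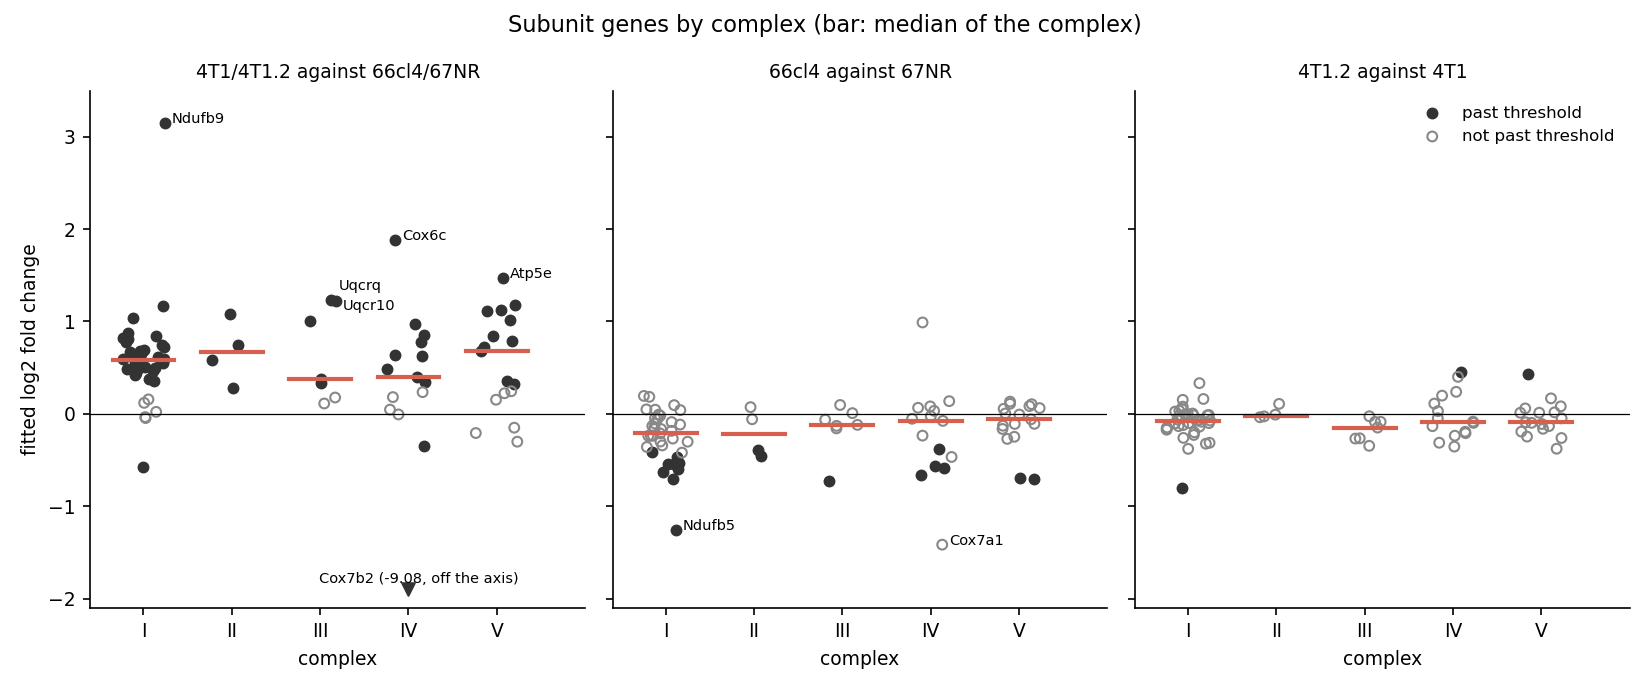
Fitted log2 differences of the 80 tested subunit genes by complex in 3 comparisons (filled points are past an adjusted p of 0.05, open points are not, and bars give the median of a complex). In the left panel the medians of the 5 complexes lie between 0.38 and 0.69, and Cox7b2 falls off the axis at -9.08.

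Complex I takes electrons from NADH. Of its 37 members, 31 were higher and 1 was lower in 4T1/4T1.2 (median 0.58), with 5 of the 7 core subunits and 26 of the 30 accessory subunits higher. Ndufb9, an accessory subunit of the membrane arm (chromosome 15, 58933801 to 58939516, mm10), had the largest increase of any member. It had 716 and 837 CPM in the 2 libraries of 4T1.2 and 822 and 1121 in 4T1, against 97.9 and 110.3 in 67NR and 95.2 and 88.2 in 66cl4. The 2 pairs of lines were far apart, and within each pair the lines lay close together. Its log2 difference was 3.15 (standard error, SE, 0.11, adjusted p = 3.21e-09), a fold of 8.88. Of the 75-base stretches of its transcripts, 13.4% also occur in other annotated transcripts, mainly the overlapping same-strand model Gm49356.

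Ndufb8, another membrane-arm accessory subunit, was the complex I member that went the other way. It had 146 and 179 CPM in 4T1.2 and 135 and 184 in 4T1, against 253 and 303 in 67NR and 211 and 205 in 66cl4. All 4 libraries of 4T1/4T1.2 were below the rest, with a log2 difference of -0.58 (SE 0.11, adjusted p = 8.50e-04). Its 56 tested neighbours within 2 Mb on chromosome 19 had a median of -1.18, and Ndufb8 was above 44 of them. Ndufs1, the largest core subunit, showed no pooled difference (-0.04, SE 0.05, adjusted p = 0.561) and was highest in 67NR and lowest in 66cl4. It was at 186 and 184 CPM in 67NR, 155 and 152 in 4T1, 146 and 146 in 4T1.2 and a mean of 127 in 66cl4 (SD 2.98, n = 2). It was the only member in which 67NR was higher than each of the other 3 lines.

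Complex II, succinate dehydrogenase, links the chain to the citric acid cycle. All 4 of its subunits were higher in 4T1/4T1.2. Sdhb, the iron-sulphur subunit, had 251 and 329 CPM in 4T1.2 and 258 and 336 in 4T1, against 158 and 169 in 67NR and 127 and 110.5 in 66cl4 (log2 difference 1.08, SE 0.11, adjusted p = 1.08e-05). The membrane anchors followed at 0.75 for Sdhd and 0.58 for Sdhc. Sdha, the flavoprotein that oxidises succinate, differed least, at 0.28 (SE 0.06, adjusted p = 9.74e-04). Its 4 libraries of 4T1/4T1.2 were at 314 to 327 CPM and the other 4 at 256 to 272, without overlap. Between 66cl4 and 67NR, Sdhb and Sdhd were lower in 66cl4 (-0.46 and -0.39), whereas Sdha was at 0.07 and Sdhc at -0.06 without a call.

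Complex III passes electrons to cytochrome c. Of its 7 tested subunits 5 were higher in 4T1/4T1.2, with a median of 0.38 over the complex. Uqcrq, a small subunit near the ubiquinone site, had 93.7 and 104 CPM in 4T1.2, 103 and 135 in 4T1, 55.3 and 62.9 in 67NR and 34.9 and 36.5 in 66cl4 (log2 difference 1.24, SE 0.09, adjusted p = 1.17e-06). Uqcr10, which supports the Rieske protein, had 121 and 127 CPM in 4T1.2, 129.6 and 169 in 4T1, 56.6 and 65.2 in 67NR and 51.0 and 61.3 in 66cl4 (1.22, SE 0.10, adjusted p = 2.05e-06). The folds were 2.35 and 2.33. Uqcrc1, a core protein, had a log2 difference of 1.00, while the other core protein Uqcrc2 was at 0.18 without a call.

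Complex IV reduces oxygen. In 4T1/4T1.2, 9 of its 15 tested members were higher and 2 lower, with a median of 0.40. Cox6c (chromosome 15, 35931976 to 35938246) had 249 and 288 CPM in 4T1.2, 304 and 383 in 4T1, 95.8 and 107 in 67NR and 69.8 and 64.9 in 66cl4. The groups were well separated, and within the lower pair 66cl4 was below 67NR. Its pooled log2 difference was 1.88 (SE 0.09, adjusted p = 3.45e-08). Cox7a2l, which takes part in joining complexes III and IV, was lower by a smaller amount (-0.35, SE 0.11, adjusted p = 0.0163), with 186 and 226 CPM in 4T1.2, 211 and 300.0 in 4T1, 274 and 284 in 67NR and 327 and 286 in 66cl4. For Cox7a2l, replicate 2 of 4T1 lay among the libraries of 66cl4 and 67NR.

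Cox7b2, a paralogue of Cox7b known from the testis, was nearly absent from one pair of lines. It had 5 counts in each library of 4T1.2, against 8 over both libraries of 4T1 together. In 66cl4 it was at 46.3 and 42.9 CPM and in 67NR at 44.1 and 46.7. Over the 4 libraries a side, 18 counts stood against 8512, a ratio of 554 once library sizes are taken into account (95% exact binomial interval 351 to 936, counting error only). The fitted log2 difference was -9.08 (SE 0.14, adjusted p = 1.79e-11), and 66cl4 and 67NR did not differ (-0.03, SE 0.11, adjusted p = 0.871). The 13 tested genes within 2 Mb of Cox7b2 on chromosome 5 had a median of 0.04, and none of them was below it. With the gene lengths of the files, Cox7b2 reached 81.0% ± 4.76 (SD, n = 2) of the level of Cox7b in 66cl4 and 63.5% ± 1.76 in 67NR, against 0.0950% ± 0.00794 in 4T1.2 and 0.109% ± 0.0730 in 4T1. Cox7b itself had 162 and 182 CPM in 4T1.2, 113 and 139 in 4T1, 130.5 and 133 in 67NR and 101 and 102 in 66cl4.

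**Figure D2:**
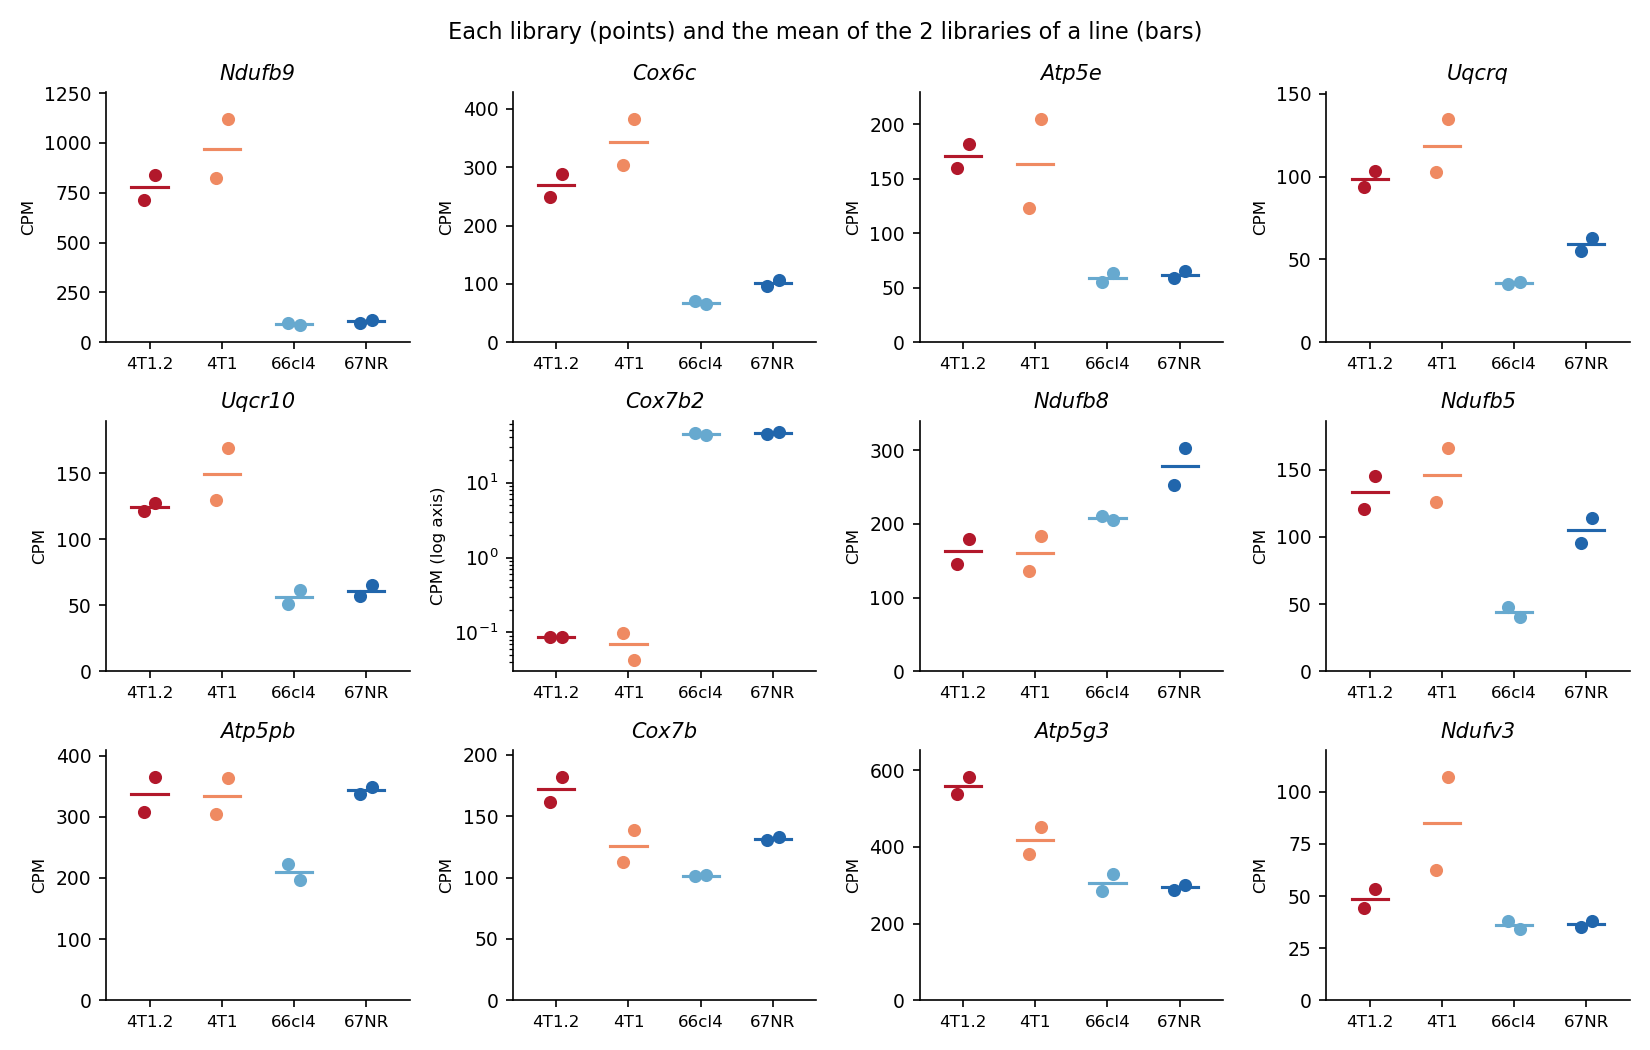
CPM of 12 subunit genes in each of the 8 libraries (points) with the mean of the 2 libraries of a line (bars). The axis of Cox7b2 is logarithmic, and its libraries of 4T1.2 and 4T1 lie below 0.1 CPM against 42.9 to 46.7 in the other lines. In Ndufb9, Cox6c, Atp5e, Uqcrq and Uqcr10 the 4 libraries of 4T1 and 4T1.2 lie above the rest.

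The other tissue-restricted paralogues of complex IV were at trace levels beside their widely used partners in every line. RPKM (CPM per kilobase of gene length) was used to compare levels between genes. Cox4i2, a paralogue associated with low oxygen, was at most 0.0635% of Cox4i1, and the muscle form Cox7a1 at most 1.21% of Cox7a2. Both passed the filter, and neither showed a pooled difference. The muscle form Cox6a2 had 0 to 7 counts a library, Cox6b2 0 to 5, Cox8b 0 or 1, and Ndufa4l2, a gene induced by low oxygen, 0 to 4. Cox8c was at 0 in all 8 libraries, which allows up to 3 counts a library. None of these 5 passed the filter. Uqcr11, a complex III subunit in general use, was the last of the 6, with 0 to 3 counts a library. Of its 75-base stretches 1.69% occur in other annotated transcripts. For Uqcr11, low expression and reads not assigned to the gene cannot be told apart here. Cox7c, which is also in general use, was at only 4.53 to 5.63 CPM over the 8 libraries and was at -0.01 between the pairs (SE 0.12). Of its stretches 19.6% are shared, mainly with the gene model Gm10012.

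**Figure D3:**
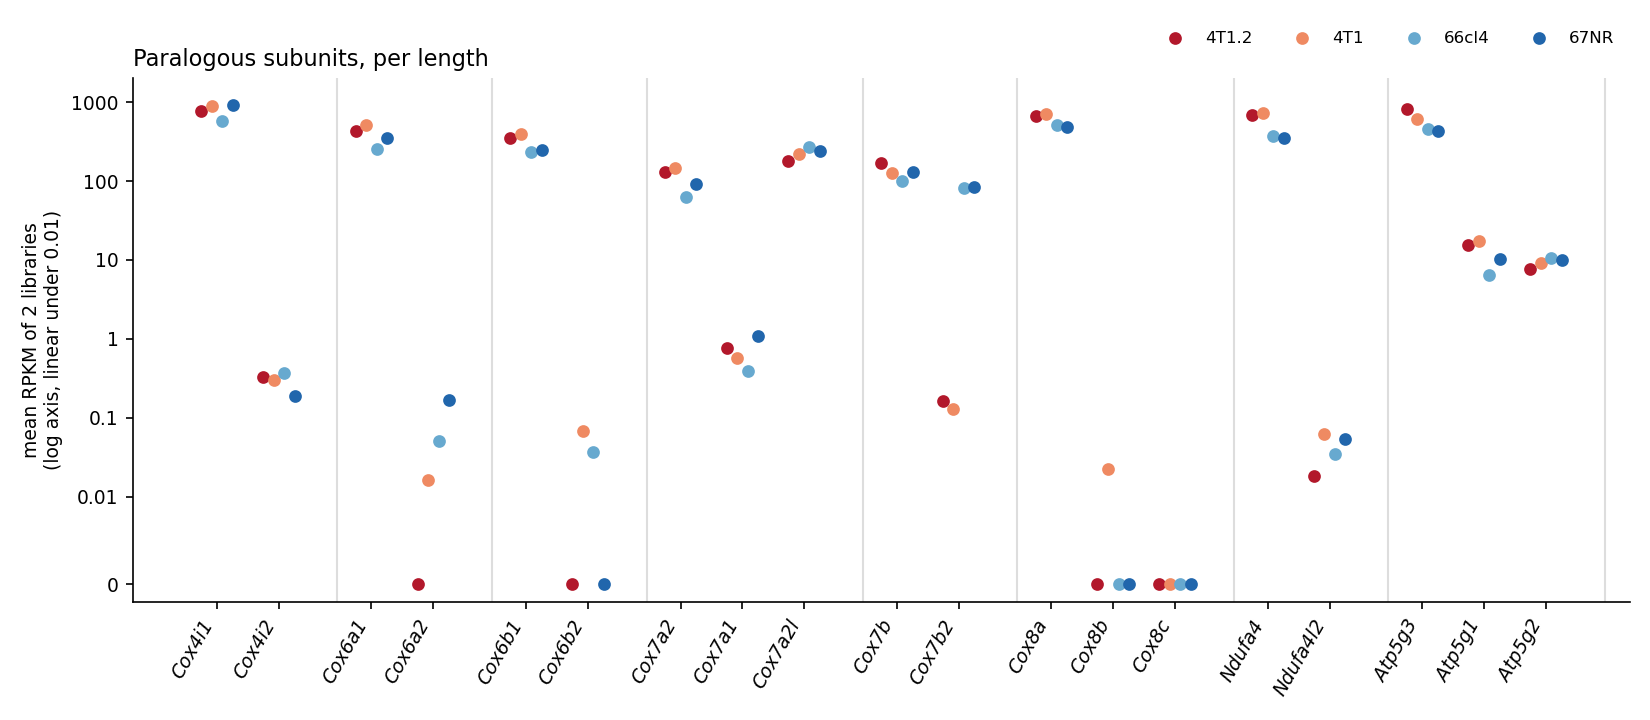
Mean RPKM of the 2 libraries of each line for 8 sets of paralogous subunits, on an axis that is logarithmic above 0.01. Cox7b2 stands at 82.1 and 83.6 in 66cl4 and 67NR and at 0.162 and 0.130 in 4T1.2 and 4T1, whereas the other restricted forms of complex IV are low in all lines.

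Complex V, the ATP synthase, had a pooled median difference of 0.69, next to 0.66 for complex II. Its median level was also the highest per length as the files give it (257 RPKM), but with exon lengths from the GENCODE annotation it was 64.8, below the 109 of complex III. In 4T1/4T1.2, 11 of its 17 members were higher and 0 lower (edgeR). At an unadjusted p under 0.05 Atp5g2 was lower, and limma-voom also called it lower whereas DESeq2 did not. All 5 subunits of F1, the catalytic head with its central stalk, were higher (median 0.79). Of the 4 subunits of the peripheral stalk, which holds the head still, 1 was higher (median 0.20). Atp5b, the catalytic beta subunit, was the highest of all members with either length, at 1537 ± 93.0 RPKM (SD, n = 2) in 4T1.2, 1638 ± 154 in 4T1, 923 ± 19.1 in 67NR and 918 ± 13.0 in 66cl4 (log2 difference 0.79, SE 0.08). Atp5e of the central stalk had 159 and 182 CPM in 4T1.2, 122.6 and 205 in 4T1, 58.5 and 64.8 in 67NR and 55.4 and 63.1 in 66cl4. The 2 libraries of 4T1 spread widely, yet both lay above all libraries of 66cl4 and 67NR (1.47, SE 0.14, adjusted p = 7.27e-06).

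The c ring, through which protons return, is made from 3 genes with the same mature product. Atp5g3 was the main one in every line, and it was higher in 4T1.2 than elsewhere, at 537 and 583 CPM, against 382 and 451 in 4T1, 287 and 301 in 67NR and 286 and 329 in 66cl4. Atp5g1 had 1.41% to 2.87% of the level of Atp5g3 with the gene lengths of the files and was also higher in 4T1/4T1.2 (1.01, SE 0.08, adjusted p = 1.62e-06). Atp5g2 was at -0.30 without passing the threshold (adjusted p = 0.0584). Of the 75-base stretches of Atp5g2, 35.8% also occur in other annotated transcripts.

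The 17 remaining members had no pooled call, with log2 differences between -0.30 and 0.24. They were 5 of complex I (Ndufa6, Ndufb11, Ndufs1, Ndufs5 and Ndufv1), Uqcrb and Uqcrc2 of complex III, Cox4i1, Cox4i2, Cox7a1 and Cox7c of complex IV, and Atp5g2, Atp5h, Atp5j, Atp5l, Atp5md and Atp5o of complex V. Several share stretches of sequence with other annotated transcripts: Atp5g2 35.8%, Atp5o 34.2%, Cox7c 19.6%, Uqcrb 16.7%, Uqcrc2 16.5%, Ndufs5 15.7% and Atp5h 14.6%. Ndufa6, Ndufv1, Cox4i2 and Cox7a1 are among the 46 of 84 annotated members that share none. Some called members also share stretches, such as Ndufb6 (27.8%) and Ndufa13 (25.6%). Reads from such stretches may be dropped or counted for another gene, and their part in the missing calls was not tested. For Cox7c the interval of the difference from the fitted error (95%, normal) was -0.24 to 0.22, so a change of the median size of 0.57 lay outside it. That holds only for the counts assigned to Cox7c, and reads dropped or counted elsewhere are not covered. For Cox4i2 the interval was -0.45 to 0.92, which is too wide to tell.

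The 4 comparisons across the pairs share lines, so their counts are not independent, and they are given side by side. Against 67NR, 52 members were higher and 3 lower in 4T1 (33.8% and 34.4% of all genes), and 44 and 4 in 4T1.2 (33.7% and 34.1%). Against 66cl4, 62 were higher and 1 lower in 4T1 (34.9% and 35.2% of all genes), and 58 and 2 in 4T1.2 (34.3% and 34.5%). The median log2 differences were 0.52, 0.41, 0.67 and 0.62 in that order. The counts against 67NR rested in part on single libraries: without replicate 1 of 67NR they fell to 34 for 4T1 and 27 for 4T1.2, and without replicate 2 of 4T1.2 to 27 for 4T1.2. Without replicate 2 of 4T1, lower members numbered 6 in the pooled comparison, 6 against 67NR and 7 against 66cl4. Ndufb9 and Cox7b2 led all 4 comparisons. Ndufb5, a complex I accessory subunit, was among the 3 largest increases in 4T1.2 against 66cl4, at 1.60 (SE 0.16, adjusted p = 1.30e-05).

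Within the lower pair, no member was higher in 66cl4 than in 67NR and 18 were lower (edgeR, median -0.13), whereas 22.3% of all genes were higher and 22.4% lower. The share of members that were lower, 22.5%, was that of all genes. No member was higher at an unadjusted p under 0.05 either (a count of 0), and DESeq2 and limma-voom also called 0. Of the members called, Ndufb5 fell most. It was at 47.9 and 40.1 CPM in 66cl4 and at 95.7 and 114 in 67NR, 121 and 146 in 4T1.2 and 126 and 166 in 4T1, so 66cl4 lay below every other library (66cl4 against 67NR -1.25, SE 0.16, adjusted p = 1.91e-04). Of its 75-base stretches 10.6% are shared, mainly with Mrpl47 on the opposite strand, and Mrpl47 was itself lower by -1.22. Uqcrq followed at -0.73 (SE 0.13, adjusted p = 0.00179). Atp5pb, the b subunit of the peripheral stalk, was at 223 and 197 CPM in 66cl4 against 337 and 349.7 in 67NR, 308 and 366 in 4T1.2 and 305 and 363 in 4T1 (-0.71, SE 0.12, adjusted p = 0.00106). For Atp5pb, 66cl4 alone was low, and the libraries of the other 3 lines lay at 305 to 366. Sdhb and Sdhd were among the calls near the threshold (adjusted p = 0.0374 and 0.0373). Without replicate 2 of 67NR, 9 members were lower in place of 18.

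Set against each of the other 3 lines, 66cl4 was the lowest for 17 members (21.25%, against 9.92% of all genes) and the highest for 0 (12.1% of all genes). These were 9 genes of complex I, 2 of complex II, 1 of complex III, 3 of complex IV and 2 of complex V. The other lines rarely stood apart. 67NR was the highest for 1 member and the lowest for 0 (10.7% and 8.30% of all genes), 4T1.2 for 2 and 0 (4.56% and 3.21%), and 4T1 for 1 and 0 (5.05% and 3.06%).

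Between 4T1.2 and its parent 4T1 few members differed: 2 were higher and 1 was lower, against 9.37% and 9.90% of all genes. Cox7b (0.45, SE 0.11, adjusted p = 0.0189) and Atp5g3 (0.43, SE 0.11, adjusted p = 0.0244) were higher in 4T1.2. Ndufv3, an accessory subunit of the NADH-binding module, was lower (-0.80, SE 0.21, adjusted p = 0.0255), with 44.4 and 53.2 CPM in 4T1.2, 62.5 and 107 in 4T1, 35.1 and 38.1 in 67NR and 37.8 and 34.4 in 66cl4. The 2 libraries of 4T1 differed widely for Ndufv3. These 3 calls were lost in the fit of those 4 libraries alone, and they rested on single libraries. Higher members numbered 0 without replicate 2 of 4T1.2 or replicate 1 of 4T1, and 4 without replicate 2 of 4T1. Lower members numbered 17 without replicate 1 of 4T1, and 0 without replicate 2 of 4T1, either replicate of 4T1.2 or either of 67NR.

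By chromosome, most members on 3 and 8 were lower in 66cl4 than in 67NR. All genes tested on chromosome 3 had a median shifted by -0.59 from that of all genes, and those on chromosome 8 by -0.31. Of all genes tested on them, 61.8% were lower on chromosome 3 and 43.3% on chromosome 8. Of the 6 members there, 5 were lower: Ndufb5, Ndufc1 and Atp5pb on chromosome 3 and Ndufb7 and Cox4i1 on chromosome 8. Ndufa13 on chromosome 8 was at 0.04 without a call. Of the other 74 members, 13 were lower, with a median of -0.12. In 4T1.2 against 4T1, the 2 higher members lay on chromosomes shifted upwards, Atp5g3 on chromosome 2 (shift 0.27) and Cox7b on the X chromosome (0.27). Of all genes on them, 30.8% and 28.3% were higher. These chromosomes hold 9 members, and the other 7 (Atp5c1, Atp5e, Cox4i2, Ndufa8, Ndufs3, Ndufa1 and Ndufb11) had no call. Further chromosomes were shifted in the comparisons across the pairs, such as 11 (0.33) and X (-0.55) in 4T1 against 67NR. Their members are not listed here. With the chromosome median taken off every member, the pooled median of the 80 members was 0.61 in place of 0.57, and 72 of 80 lay above their chromosome. Across the 80 genes, the fitted change correlated with the median of the chromosome at a Pearson r of 0.18 in the pooled comparison, 0.39 in 66cl4 against 67NR and 0.58 in 4T1.2 against 4T1. Genes of a chromosome share these medians and are not replicates, so no p is given. DNA copy number was not measured.

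**Figure D4:**
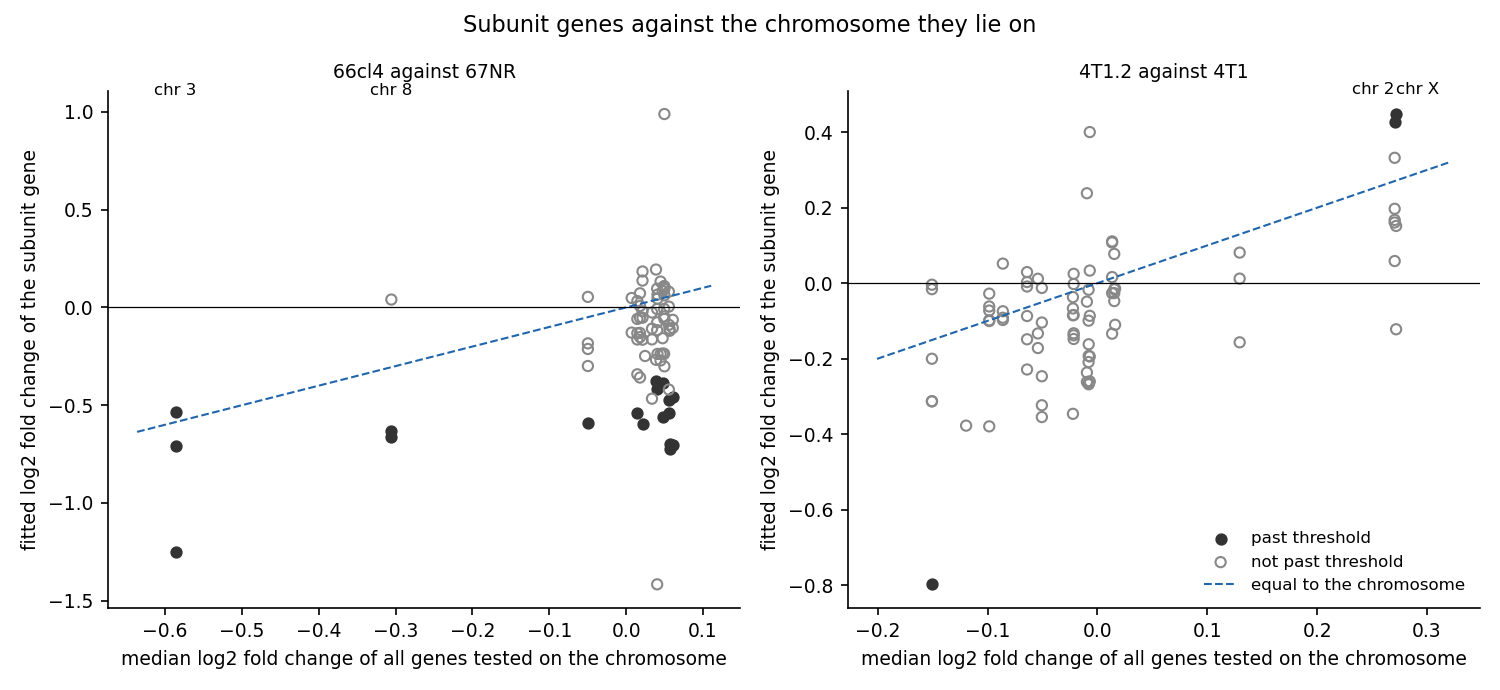
Fitted log2 difference of each of the 80 subunit genes against the median of all genes tested on its chromosome, for 66cl4 against 67NR and 4T1.2 against 4T1 (filled points are past the threshold). The 3 members of chromosome 3 lie near the dashed line of equality or below it, and the 2 members that rose in 4T1.2 lie at the right, on chromosomes 2 and X.

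The 2 largest increases of the pooled comparison, Ndufb9 and Cox6c, both lay in the first part of chromosome 15, about 23 Mb apart. The 142 tested genes from 50 Mb before to 10 Mb after Ndufb9 had a median of 1.02, with 114 higher and 17 lower. The 396 genes 15 Mb or more beyond Ndufb9 had a median of -0.13, with 134 higher and 178 lower. These bounds were chosen with the values in view. Of the other 3 members on the chromosome, Ndufb4c was at 0.67, near the median of 0.70 of its 29 neighbours within 2 Mb, and Ndufa6 (-0.05) and Atp5g2 (-0.30) lay in the second stretch. Cox6c exceeded 14 of its 18 neighbours, whose median was 1.04. Ndufb9 exceeded all 23 of its neighbours, whose median was 1.60 and highest value 2.68. Over all 80 members, 75 lay above the median of their neighbours within 2 Mb, by a median of 0.63. What part the region plays in the 2 increases was not tested.

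**Figure D5:**
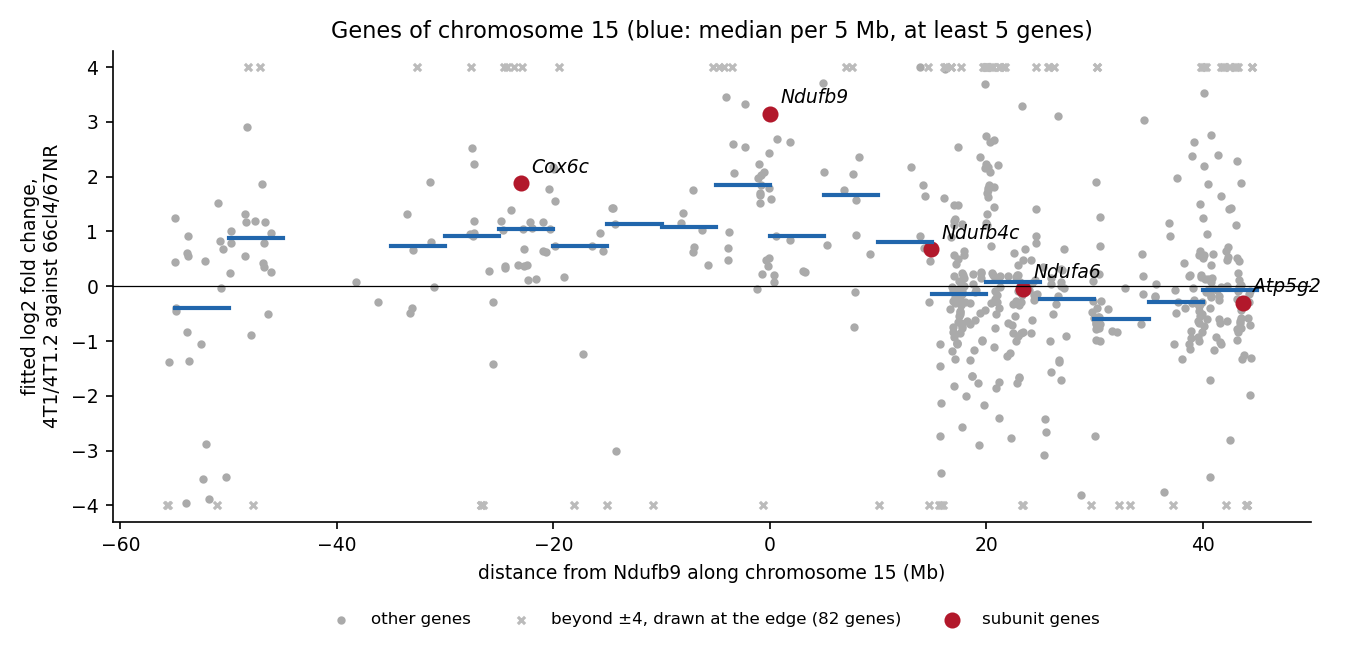
Fitted log2 difference in the pooled comparison of all 574 tested genes of chromosome 15 against their distance from Ndufb9, with the 5 subunit genes in red and medians per 5 Mb in blue. Ndufb9 (3.15) and Cox6c (1.88) lie above a stretch whose medians are mostly near 1 or higher, and Ndufa6 and Atp5g2 in a stretch whose medians are near or below 0.

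Per length, the subunits of one complex were not at equal RNA levels. In complex I the mean over the 4 lines ran from 7.07 RPKM for Ndufb4 to 746 for Ndufb9, and its median was 81.0. Ndufb9 was at 1192 RPKM in 4T1.2 and 1492 in 4T1, but at 141 in 66cl4 and 160 in 67NR. In 66cl4 and 67NR Ndufb8 stood higher, at 324 and 434. In complex II it ran from 21.7 for Sdhd to 202 for Sdhb, in complex III from 65.8 for Uqcrb to 389 for Uqcrh, in complex IV from 0.296 for Cox4i2 to 784 for Cox4i1 and in complex V from 9.31 for Atp5g2 to 1254 for Atp5b. These are values with the gene lengths of the files. With exon lengths of the annotation the highest of complex IV was Cox8a at 523.5 and the lowest of complex V was Atp5l at 0.938, and Ndufb4 was at 1.68. The 3 Ndufb4 genes on chromosomes 16, 19 and 15 are close copies, so the reads of one may be counted for another or dropped, and their levels are uncertain.

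Genes that work with these subunits were counted by lists, to be read beside the 38.1% of all genes that were higher and the 38.6% that were lower in the pooled comparison. The 13 protein-coding genes of the mitochondrial genome encode further subunits of complexes I, III, IV and V. Of these 13, 9 were higher (69.2%) and 0 lower (edgeR, median 0.95, lowest value 0.36). Only 2 of the 13 had all libraries of 4T1/4T1.2 above the rest, where the share over all genes was 27.8%. The calls lay mainly against 67NR, with 9 of 13 higher in 4T1 (69.2%, with 33.8% of all genes) and 8 in 4T1.2 (61.5%, with 33.7%). Against 66cl4, 4 of 13 were higher in 4T1 (30.8%, with 34.9% of all genes) and 2 in 4T1.2 (15.4%, with 34.3%). In 66cl4 against 67NR, 3 were higher (23.1%), near the 22.3% of all genes. Among them, ND3 of complex I, had 351 and 313 CPM in 66cl4, and 146 and 145 in 67NR (1.19, SE 0.17, adjusted p = 4.54e-04). Replicates of other mitochondrial genes were far apart, as for ND2 at 2128 and 5916 CPM in 4T1.2 and 3494 and 1658 in 66cl4.

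Of 46 assembly factors 27 were higher (58.7%) and 6 lower (13.0%) in the pooled comparison. They were led by Foxred1, a complex I assembly factor (1.91, SE 0.08), and Cox15, which makes the haem A of complex IV (-1.67, SE 0.07). Of 77 mitochondrial ribosomal proteins 53 were higher (68.8%) and 8 lower (10.4%), led by Mrpl13 at 2.59. Of 33 import and membrane genes 19 were higher (57.6%) and 3 lower (9.09%), and of 13 citric acid cycle enzymes 9 were higher (69.2%) and 1 lower (7.69%). Of the 9 tested subunits and carriers outside the symbol rule 5 were higher and 2 lower, with Cycs, cytochrome c, at 1.06 and Etfdh, which feeds electrons from fat oxidation, at -1.03. Against 67NR alone the shares that were higher lay nearer to those of all genes (33.8% for 4T1 and 33.7% for 4T1.2). The shares that were lower stayed below those of all genes (34.4% for 4T1 and 34.1% for 4T1.2) in each list. Assembly factors had 16 higher and 7 lower in 4T1 (34.8% and 15.2%) and 17 and 7 in 4T1.2 (37.0% and 15.2%). The import list had 11 higher and 8 lower in 4T1 (33.3% and 24.2%) and 13 and 5 in 4T1.2 (39.4% and 15.2%). The ribosomal list had 35 and 11 in 4T1 (45.5% and 14.3%) and 31 and 7 in 4T1.2 (40.3% and 9.09%). The citric acid cycle list had 6 higher and 1 lower in 4T1 and the same in 4T1.2 (46.2% and 7.69%).

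In 66cl4 against 67NR, where 22.3% of all genes were higher and 22.4% lower, 17 of the 46 assembly factors (37.0%) and 39 of the 77 ribosomal proteins (50.6%) were lower, and 1 of each list was higher. Of the import genes 18 of 33 were lower (54.5%) and 1 was higher.

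Of the 15 tested regulators 6 were higher (40.0%) and 6 lower (40.0%) in the pooled comparison, near the shares of all genes. Nrf1 (0.31), Gabpb1 (0.63), Tfam (0.42), Tfb2m (0.72), Yy1 (0.56) and Myc (0.28) were higher in 4T1/4T1.2, and Gabpa (-0.78), Esrra (-0.27), Polrmt (-0.39), Polg (-0.72), Twnk (-1.15) and Pprc1 were lower. The largest difference was that of Pprc1, a coactivator of the PGC-1 family, which had 42.2 and 28.1 CPM in 4T1.2, 40.5 and 24.6 in 4T1, 241 and 221 in 67NR and 122 and 153 in 66cl4 (-2.39, SE 0.18, adjusted p = 8.10e-07).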

How the data were processed

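Total RNA of the 4 lines was made into Illumina TruSeq RNA v2 libraries. Alignment by the authors was to mm10 (Rsubread), with featureCounts giving whole-number counts per Entrez gene, and the deposited values used here are these raw counts in the series matrix. Gene length, the other column used, is also as deposited by the authors. The counts of the 8 per-sample files were identical to the matrix. Whether counting used strand, and the intended depth, are not given in the sources used here, so overlapping genes may share reads.

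Identifiers were matched to RefSeq (25275 of 27179 had an entry). filterByExpr with default settings kept 15269 genes, and removal of unmatched, predicted and ribosomal protein or rRNA genes left 13913. Comparisons used the quasi-likelihood pipeline of edgeR (version 4.0.16, R 4.3.3; legacy fit, TMM, prior count 0.125) with a mean for each of the 4 lines, which share an estimate of spread over 4 residual degrees of freedom (biological coefficient of variation 9.74%). Adjusted p-values are Benjamini-Hochberg values over all 13913 genes with a threshold of 0.05. Standard errors were derived from the F statistic. CPM and RPKM used TMM effective library sizes. The p-values measure only the spread between 2 replicates of each culture.

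On simulated counts with 200 genes changed 2-fold, 89.0% were recovered in the pooled comparison (15 false calls) and 80.0% in 66cl4 against 67NR (12 false calls). At 1.5-fold, 71.5% and 39.0% were recovered. Far more genes were called in the data than were changed here, so these shares do not measure recovery in the data.

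Shared stretches of 75 bases and exon overlaps were computed from GENCODE vM21, in which 84 of the 86 members were found. Of these, 46 had no shared stretch and 4 had over 20% shared. Neighbours were the tested genes with a midpoint within 2 Mb.

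The members, lists, comparisons and alternatives were chosen with earlier results of these data known. The genes named are the 5 largest changes in each direction in the pooled comparison and the 3 largest in each comparison of single lines. These were taken from called members without overlap between the libraries of both sides. Also named are the paralogue sets, the complex II subunits, the members that failed the filter and the leading genes of the other lists. So are the highest and lowest member per length of each complex. Members on chromosomes shifted by at least 0.2 are named only for the comparisons within a pair. Further genes are named to account for members without a call. Alternatives were DESeq2 1.42.0, limma-voom (limma 3.58.1), DESeq2 size factors, library totals, 2 other filters, no annotation removal, the newer edgeR fit, a replicate block, leaving out each library, fits of 4 libraries alone, subtraction of chromosome medians, another gene length and motifs on a single strand. Figures were drawn with matplotlib 3.10.9.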

Additional observations from a re-analysis of the deposited data

Results flagged for a closer look

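Some members that were not tested had more counts in a library than the 3 that a count of 0 allows. Cox6a2 had 4 counts in replicate 1 and 7 in replicate 2 of 67NR, with at most 2 in any other library. Cox6b2 had 5 counts in replicate 1 of 4T1 and 0 in replicate 2. Ndufa4l2 had 4 counts in replicate 2 of 4T1. No comparison was made on these few reads.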

How the results depend on the processing

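Of the alternative values of the main results, 250 stayed within their limits and 45 did not. The limits were 1.5 times the main count, the replicate spread for medians and levels, and a 95% binomial interval for motif shares. The NRF1 motif reads the same on both strands, so its value on a single strand could not move. For the named members 1433 kept their call, 40 lost it and 20 gained one, and none changed sign with a call. DESeq2 and limma-voom each gave 60 higher members in the pooled comparison. With library totals in place of TMM, lower members numbered 7 in the pooled comparison, 7 in 4T1.2 against 67NR, 4 in 4T1 against 66cl4 and 5 in 4T1.2 against 66cl4. In 4T1 against 66cl4 the single lower member became 2 with no filter, DESeq2 or limma-voom and 0 with at least 10 counts in every library, where Cox7b2 is not tested, and that filter left 1 in 4T1.2 against 66cl4. Fits of 4 libraries alone gave 0 higher and 0 lower in 4T1.2 against 4T1 and 4 lower in 4T1.2 against 66cl4. With exon lengths of the annotation, the median RPKM was 40.5, 71.0, 109, 86.2 and 64.8 for complexes I to V. On the strand with the sequence of the RNA alone, ETS/GABPA was in 6.06% of member windows against 10.8% of all. That turns the direction seen on both strands, and the opposite strand was not counted alone. ERR was in 4.55% against 2.06% on the strand of the RNA. Leaving out each library gave 58 to 67 higher and 2 to 6 lower members in the pooled comparison, 0 to 4 and 0 to 17 in 4T1.2 against 4T1, 0 to 0 and 9 to 26 in 66cl4 against 67NR, 34 to 62 and 2 to 6 in 4T1 against 67NR, 27 to 54 and 3 to 5 in 4T1.2 against 67NR, 54 to 68 and 1 to 7 in 4T1 against 66cl4, and 45 to 64 and 1 to 4 in 4T1.2 against 66cl4. Over all genes tested, the replicate numbers were not found to pair the samples (correlations of same-numbered deviations -0.12 to 0.27). The median member, however, was higher in replicate 2 of each line. With a replicate block, 61 members were higher and 4 lower in the pooled comparison. Lower members then numbered 4 in 4T1.2 against 4T1, 23 in 66cl4 against 67NR, 2 in 4T1 against 66cl4 and 4 in 4T1.2 against 66cl4. Against 67NR, 56 were higher in 4T1 and 51 in 4T1.2 with the block. An alternative chosen after seeing the data left 4 members that share much sequence or exon with other genes out of the count, without a new fit. Ndufb6 and Ndufa13 among them had been called higher and Atp5g2 and Atp5o had no call, so 58 higher and 3 lower remained. That count follows from the main calls and does not test the effect of shared sequence. Ndufb4b and Ndufb4c were not found in the annotation and were not screened. Except where a gene was removed by the filter or left out of the count, the cause of these changes was not tested. In the simulated counts, 39.0% of 1.5-fold differences were recovered in 66cl4 against 67NR. Only 200 of 13913 genes were changed there, far fewer than were called in the data, so the share missed in the data is not known.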
